A study of Mus musculus with 20 samples.

Results

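The loci described here are long, unspliced long intergenic noncoding RNA (lincRNA) models that stand alone on their strand. They were taken from the exon models deposited with a study of RNA at replication forks, a catalogue labelled NONCODE lincRNA on the mm9 mouse genome. A locus was kept when it lay on chromosomes 1 to 19, when every one of its transcripts had 1 exon, when its longest transcript reached 4000 nt, and when no other catalogued locus on the same strand came within 5000 bases of its span. Of 29286 catalogued loci, 27637 lay on these chromosomes, 14677 of those were unspliced throughout, 673 of those were long enough, and 538 also stood alone. The members were thus 1.95% of the autosomal loci and 3.67% of the unspliced ones.

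The study sequenced RNA from 20 libraries of wild-type mouse cells, 5 groups of embryonic stem cells (ESC) and 5 groups of NIH3T3, a mouse fibroblast line, with 2 libraries in each group. In every group cells received the thymidine analogue EdU for 10 min and were fixed with 1% formaldehyde. EdU in new DNA was then joined by click chemistry to biotin azide at 10 µM, or, in the no click groups, given DMSO instead, and biotin was pulled down on streptavidin before RNA was extracted. The no click and click normal groups had no drug, whereas the click HU, click chase and click protease groups had hydroxyurea, which stalls replication forks, at 4 mM for 4 h. Unlike the ESC, the NIH3T3 cells of all 5 groups had been synchronised beforehand: thymidine at 2 mM was left on for 15 h, and 2.5 h in fresh medium followed. The analysed file gives positions only and no value for any library, so levels of these loci in the 10 groups were not analysed here and no depth or replicate error applies to what follows.

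Most long RNA polymerase II transcripts are spliced, and most are cleaved and polyadenylated a short way downstream of the hexamer AATAAA or its variant ATTAAA. A few well-known mouse noncoding RNAs are largely unspliced and work in the nucleus, among them Malat1, the long form of Neat1, Airn and Kcnq1ot1. A single-exon model in a transcript catalogue has no splice junction to fix its strand, and such models can stand for a mature unspliced RNA, for a retained intron or for a stretch of a longer precursor.

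The 3′ ends of 6 members are shown first, because the presence or absence of a polyadenylation hexamer is a property that the selection did not use. They could be read only for members whose length equalled that of a single-exon transcript in GENCODE M21, an annotation of the later GRCm38 build, on the same chromosome and strand. That was so for 101 members. When the reference strands were swapped, 9 members found an equal length. To guard against equal lengths by coincidence, the distance to another matched catalogued locus within 2 Mb also had to agree within 10 bases, each distance being measured inside its own annotation. This left 91 members (16.9%), each with 1 to 17 such neighbours and a median of 7. No coordinate was compared between the builds, and all coordinates given here are mm9 and count from 1.

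Each line below gives the last 60 bases of the GENCODE transcript, 5′ to 3′ on the transcribed strand, with every hexamer within the last 50 bases in capitals.
Peg13: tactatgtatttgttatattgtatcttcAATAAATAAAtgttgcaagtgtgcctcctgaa
Gm45477: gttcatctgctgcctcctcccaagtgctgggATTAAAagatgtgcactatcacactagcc
Gm43668: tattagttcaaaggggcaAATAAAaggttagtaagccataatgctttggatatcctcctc
Gm49705: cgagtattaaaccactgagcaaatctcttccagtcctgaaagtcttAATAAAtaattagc
Gm37456: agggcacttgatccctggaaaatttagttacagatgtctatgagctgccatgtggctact
Gm13081: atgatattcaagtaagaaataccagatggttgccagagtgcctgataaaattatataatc
Peg13 is the locus NONMMUG014744 (chr15:72636030-72640754, minus strand), and its capitals mark 2 overlapping copies of the hexamer, of which the last began 28 bases before the end. Gm45477 (NONMMUG027174, chr3:90115440-90120937, plus strand) carried ATTAAA 29 bases from its end. In Gm43668 (NONMMUG026337, chr3:33969176-33974922, plus strand) the hexamer lay 42 bases from the end, and in Gm49705 (NONMMUG016236, chr16:31761052-31766270, plus strand) 14 bases. Gm37456 (NONMMUG000958, chr1:70618009-70623845, minus strand) and the processed pseudogene Gm13081 (NONMMUG031249, chr4:143335690-143341288, plus strand) were the longest of the 91 matched members, and neither had a hexamer in this window.

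Most matched members had no polyadenylation hexamer near the end. AATAAA or ATTAAA occurred in the last 50 bases of 22 of the 91 (24.2%), with a transcript holding both counted once. AATAAA, with or without ATTAAA, occurred in 16 (17.6%). On the reverse strand of the same window the share was 8.79%, and in a window of the same size 1000 bases inside the transcript it was 6.59%. The corresponding share at the end of 2773 spliced transcripts of GENCODE lincRNA genes was 51.7%, against 9.88% on the reverse strand. The members' share at the end thus lay above that in their own interiors and below that at the ends of spliced lincRNA transcripts. The share was 21.3% in all 207 single-exon TEC transcripts of the same minimum length, a GENCODE class described below. Those 207 include the members matched to TEC, so the sets overlap, and none of these differences was tested. Where a hexamer was present, the last one began a median of 22.5 bases from the end, against 21 in the spliced transcripts.

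**Figure D1:**
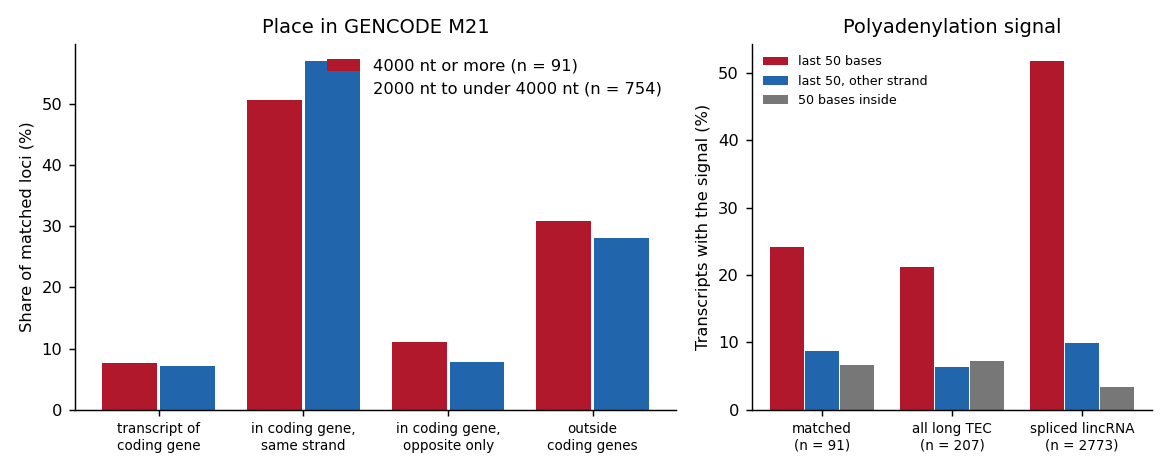
Place of the 91 members matched to GENCODE M21 relative to protein-coding genes (left, percent), beside 754 matched shorter lone unspliced loci, and the share of transcripts with AATAAA or ATTAAA in the last 50 bases, on its reverse strand and in a window inside the transcript (right, percent), for matched members, long TEC transcripts and spliced lincRNA transcripts. The same-strand class holds most of either set on the left, 50.5% of the members and 56.9% of the shorter loci, and on the right 24.2% of matched members against 51.7% of spliced lincRNA transcripts carry a hexamer at the end.

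The base composition at the 5′ end was low in CpG for most matched members. Over the first 300 bases, the ratio of observed to expected CpG had a median of 0.183, against 0.265 for the spliced lincRNA transcripts. For the 207 long TEC transcripts it was 0.179, so the low ratio was not particular to the members. A ratio above 0.6, a usual minimum for a CpG island, was found in 9.74% of the spliced transcripts, 7.73% of the long TEC transcripts and 6 matched members (6.59%). Those 6 were Gm45112 at 1.17, Gm38577 at 0.858, Gm43274 at 0.818, the Stox2 transcript at 0.669, Peg13 at 0.637 and Gm48542 at 0.628. GC content of the first 300 bases was not examined, so no CpG island was called. Over whole transcripts the median GC content was 40.7%, with a range of 32.5% to 51.6%. The median for the spliced transcripts was 45.9%, and for the long TEC transcripts 40.7%.

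Most matched members had no long open reading frame on either strand. The longest frame on the transcribed strand had a median of 89 codons, and on the reverse strand 83 codons. The longest of all on the transcribed strand, 222 codons, was in Gm13961, which GENCODE lists as a pseudogene. On the reverse strand, frames of 616 codons in Gm44231 and 587 codons in Gm37625 were longer than any on the transcribed strand. In the 207 long TEC transcripts the longest frames had medians of 88 codons on the transcribed strand and 89 on the reverse.

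By GENCODE type, the matched members were mostly unverified models. Of the 91, 72 (79.1%) were TEC genes, the class GENCODE uses for transcribed regions that still await experimental testing. Another 3 were lincRNA genes, 4 were sense intronic genes, 2 were processed pseudogenes, 2 were transcribed processed pseudogenes and 1 was a processed transcript. Only single-exon GENCODE transcripts could be matched. The types of all such transcripts of this length were not counted, so these shares may be those of the reference. The remaining 7 were transcripts of protein-coding genes, and GENCODE types all 7 as retained introns. These belonged to Slc26a2 (a sulfate transporter), Slit2 (a secreted axon guidance ligand), Gsdme (a pore-forming gasdermin), Stox2, Tmcc1, Glb1l2 and Dennd1a.

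The word intergenic in the catalogue's name did not describe most matched members in this later annotation. In GENCODE M21, 63 of the 91 (69.2%) overlapped a protein-coding gene or were a transcript of one. Counting those 7 transcripts, 53 (58.2%) lay on the strand of the coding gene. Another 10 (11.0%) lay only opposite one, all inside its introns, as Gm43668 does in Dnajc19 (a mitochondrial import component) and Gm37456 in Spag16 (a sperm axoneme protein). On its own strand Gm43668 also lay close to a coding gene, with Fxr1 ending 337 bases upstream. The other 28 (30.8%) lay outside coding genes. Whether the 447 unmatched members are placed alike was not tested, and the matched ones were slightly longer, with a median of 4532 nt against 4424 nt.

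Other single-exon models were placed by the same procedure for comparison. Among unspliced lone loci from 2000 nt to just under the minimum, 754 of 4644 (16.2%) were matched, and 64.1% of those lay on the strand of a coding gene or were a transcript of one. Of the 72 members matched to TEC, 58.3% lay in a coding gene on its strand. The share was 59.4% of all 207 single-exon TEC transcripts of the same minimum length. The 207 include those 72, so some likeness is built in. These shares lay within 10 percentage points of the members' own, and the differences were not tested.

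Of the 46 members lying in or over a coding gene on its strand without being its transcript, 45 were whole inside introns, and Gm38253 (NONMMUG027590, chr3:106528517-106533194, plus strand) reached an exon of Lrif1. The 45 lay in 40 host genes, with 2 members each in Gphn, Fam155a, Spock3, Ctnna2 and Adgrb3. The hosts were long: their median span was 212 kb, with a range of 21.4 kb to 1973 kb, whereas the median of all 20807 autosomal protein-coding genes was 17.6 kb. The introns themselves had a median of 46.3 kb. No correction was made for the room that an intron of a given length offers.

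The 3 longest host introns belonged to Lrrtm4, Ctnna2 and Kcnip4. Gm44231 (NONMMUG035736, chr6:80605023-80609097, plus strand) lay in an intron of 783 kb of Lrrtm4, which encodes a synaptic adhesion protein. Gm44435 (NONMMUG035712, chr6:77362294-77366412, minus strand) lay in an intron of 455 kb of Ctnna2, a neuronal alpha-catenin. Gm42770 (NONMMUG032424, chr5:49515826-49519980, minus strand) lay in an intron of 396 kb of Kcnip4, a potassium channel interacting protein. At the other extreme, Gm37672 (NONMMUG026879, chr3:75423269-75427282, plus strand) took up most of an intron of 4.54 kb of Serpini1, with 24 bases to the upstream exon and 499 to the downstream one. Gm43466 (NONMMUG027415, chr3:100386237-100391450, minus strand) likewise filled most of a 5.56 kb intron of Man1a2, 191 and 157 bases from its exons. Such near-complete introns were few, since 30 of the 45 were farther than 5000 bases from every host exon, 5 began within 1000 bases downstream of one and 3 ended within 1000 bases upstream of one.

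The 28 matched members outside coding genes were a median of 59.2 kb from the nearest one, and 6 were within 5000 bases. The closest was Gm45112 (NONMMUG039192, chr7:127773276-127778400, minus strand), 290 bases from Uqcrc2, a subunit of respiratory complex III, and this member also had the highest CpG ratio at its 5′ end. The farthest was Gm28262 (NONMMUG039794, chr8:7857876-7863406, plus strand), 754 kb from Efnb2, an ephrin ligand. A coding gene on the same strand ended within 5000 bases upstream of 3 of the 28 and within 20000 bases upstream of 5. Most of the 28 thus had no such end within 20000 bases. Members overlapping a coding gene were not in this count, among them Gm43668, with Fxr1 ending 337 bases upstream.

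Of 37 well-known mouse noncoding RNAs looked for by symbol, 33 were in GENCODE M21 and 19 could be linked to a catalogued locus. Those without a link, among them Airn and Tug1, were not shown to be absent from the members. Only 5 of the listed RNAs had a single-exon GENCODE transcript of at least the minimum length. The 1 member found was Peg13, an imprinted RNA made from the paternal allele within Trappc9. Its locus held 2 transcripts, of 4725 nt and 3334 nt, and lay in a Trappc9 intron of 50.8 kb, 41.8 kb from the upstream exon and 4.20 kb from the downstream one. Malat1 and Neat1 fell outside the selection because the catalogue also holds spliced models for them. The Malat1 locus had 29 transcripts with up to 8 exons, and the Neat1 locus 11 transcripts with up to 4 exons. Kcnq1ot1, a single exon of 93092 nt in GENCODE, had no catalogued transcript of that length, the longest among the autosomal spliced loci being 22911 nt.

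The rule set the minimum length, and most members lay close to it. The longest transcript of a member had a median of 4439 nt, with quartiles of 4170 and 4853 nt, and 293 members (54.5%) were below 4500 nt. Another 141 (26.2%) were between 4500 and 4999 nt, 91 (16.9%) between 5000 and 5999 nt, 8 between 6000 and 6999 nt, 2 between 7000 and 7999 nt and 3 were longer. The first 100 nt above the minimum held 86 members, and the 100 nt below it held 84 lone unspliced loci. For scale, the shorter unspliced loci, which are under the minimum by definition, had a median of 1706 nt and the spliced loci 901 nt.

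**Figure D2:**
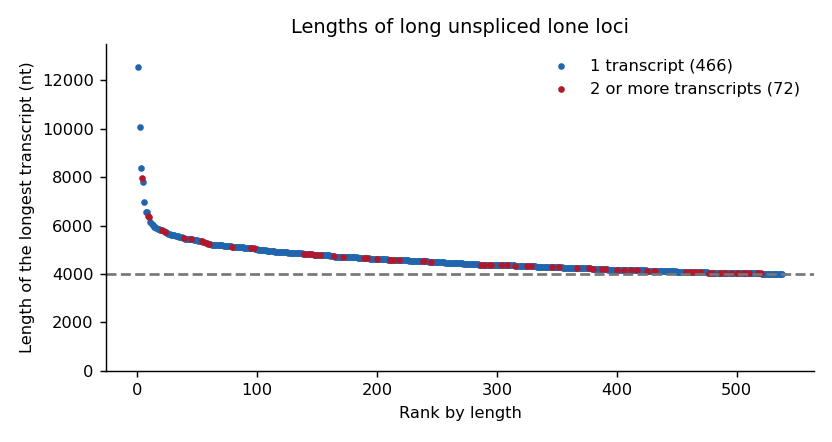
Length of the longest transcript (nt, linear axis) of each of the 538 members against its rank, with members of 1 transcript and of 2 or more in separate colours and the 4000 nt minimum dashed. The curve is flat close to the minimum for most members and steep for the few longest, the first at 12530 nt.

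The 5 longest members stood well above the rest. NONMMUG009149 (chr12:68757729-68770258, minus strand) was 12530 nt, and the catalogue has no other locus within 465429 bases of it. NONMMUG034617 (chr6:12049517-12059579, minus strand) was 10063 nt and NONMMUG036795 (chr6:136182257-136190619, plus strand) 8363 nt. NONMMUG043194 (chr9:68611478-68621129, plus strand) had a longest transcript of 7977 nt but a span of 9652 bases, made up by 3 staggered transcripts. NONMMUG012352 (chr14:22102035-22109833, minus strand) was 7799 nt, with an opposite-strand locus 1552 bases from its 3′ end. None of these 5 had a matched GENCODE transcript.

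Just inside the length minimum were NONMMUG038567 (chr7:90527652-90531651, minus strand) at 4000 nt, NONMMUG026515 (chr3:50204204-50208205, minus strand) at 4002 nt and NONMMUG002205 (chr1:162685818-162689820, plus strand) at 4003 nt. Just outside it were NONMMUG008900 at 3999 nt, NONMMUG029906 at 3998 nt and NONMMUG009039 at 3997 nt. NONMMUG026515 is the GENCODE gene Gm37498, in an intron of Slc7a11, the cystine transporter.

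The clearance on the same strand removed 135 of the 673 long unspliced loci. Of these, 19 overlapped a same-strand locus, all 19 lying whole inside its intron, 27 had a neighbour within 1000 bases and 89 one farther off. The share that stood alone, 79.9%, lay beside 82.1% of the shorter unspliced loci and 82.0% of the spliced loci. The removed loci were of like length, with a median of 4432 nt. The kept locus nearest to the limit was NONMMUG025776 (chr2:174962456-174967490, minus strand), 5105 bases from its same-strand neighbour. The removed locus nearest to it was NONMMUG035563 (chr6:66866397-66870707, plus strand), at 4907 bases.

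Most members were a single transcript model. Of the 538, 466 had 1 transcript, 56 had 2, 11 had 3, 1 had 4, 3 had 5 and 1 had 7. NONMMUG018466 (chr17:47664910-47669765, plus strand) had the 7, of 1482 to 4823 nt, 4 of which began within 7 bases of each other. Those with 5 were NONMMUG023347 (chr2:71107919-71112211, minus strand), NONMMUG026337, given above as Gm43668, and NONMMUG030630 (chr4:126009980-126015875, minus strand). Among the 72 members with several transcripts (13.4%), 38 had a span longer than any one transcript. All ends lay within 50 bases of the 3′ end in 11 and all starts within 50 bases of the 5′ end in 6, so most of these 72 loci shared neither boundary among their models.

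Both strands were used about equally, with 259 members on the plus and 279 on the minus strand, against 13585 and 14052 of all autosomal loci. All 19 autosomes held members, from 18 on chromosomes 13 and 19 to 43 on chromosome 2. Per Mb of catalogued span, chromosome 19 was highest at 0.309 and chromosome 1 lowest at 0.134, with 26 members, and the value over all autosomes was 0.223. As a share of each chromosome's loci, members ranged from 1.30% on chromosome 13 to 2.77% on chromosome 18. Chromosome 1 was low by this measure too, at 1.41%.

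**Figure D3:**
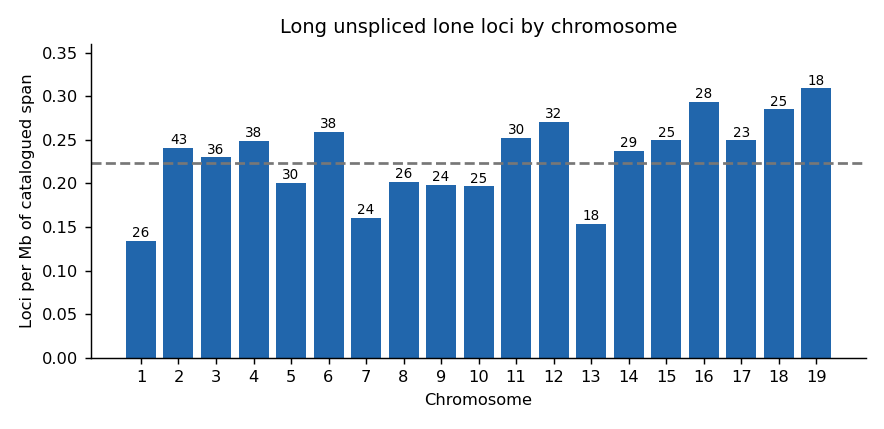
Members per Mb of catalogued span on each autosome, with the number of members on each bar. Chromosome 19 has the highest density, 0.309 per Mb, and chromosome 1 the lowest, 0.134 per Mb.

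Members were mostly far from one another. The 519 pairs of neighbouring members on a chromosome were separated by a median of 2882 kb, and the largest gap, on chromosome 1, was 32.3 Mb. In 29 pairs the distance was at most 100 kb, and in 133 at most 1 Mb. The 3 closest pairs overlapped, each on opposite strands. NONMMUG039290 and NONMMUG039291 had identical spans (chr7:133307547-133311917, plus and minus) and shared all 4371 bases. NONMMUG043195 (chr9:68615047-68619267, minus strand) lay whole inside NONMMUG043194, sharing 4221 bases. NONMMUG017591 (chr17:17658379-17662739, minus strand) and NONMMUG017592 (chr17:17659826-17664545, plus strand) overlapped at their 5′ ends by 2914 bases.

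Standing alone on a strand did not mean standing far from every locus. The nearest locus on the same strand was a median of 34420 bases away, with a minimum of 5105 set by the rule, and the nearest on the opposite strand a median of 85304 bases. On either strand the median was 22779 bases, 130 members (24.2%) had a locus within 10 kb and 49 (9.11%) had none within 100 kb. Among the 11491 shorter lone unspliced loci these shares were 23.9% and 9.54%, and among all autosomal loci 41.6% and 7.79%. The members farthest from any other locus were NONMMUG004602 (chr10:105511283-105516132, plus strand; Gm48363) at 516440 bases, NONMMUG012227 (chr14:14858423-14862658, plus strand) at 514344 bases, and the longest member, NONMMUG009149.

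On the opposite strand, which the rule left free, the members' shares with a neighbour lay nearer to those of other lone unspliced loci than to those of spliced loci. No test was run on these shares. An opposite-strand span overlapped 25 members (4.65%), against 4.03% of the 11491 shorter lone unspliced loci and 14.7% of the 12960 spliced loci. An opposite-strand locus lay within 5000 bases of 50 members (9.29%), against 9.23% and 23.5%. Within 100 kb the shares were 54.6%, 61.5% and 74.5%. The spliced loci also spanned more of the genome and were not required to stand alone.

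**Figure D4:**
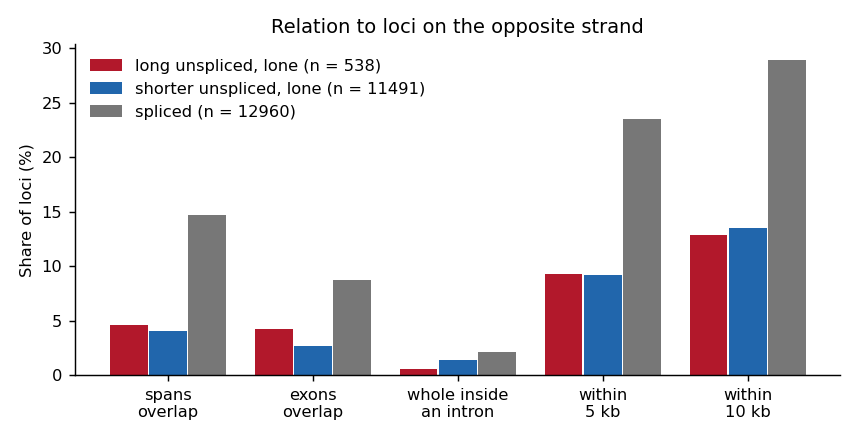
Share of loci (percent, axis from 0) with an opposite-strand span overlap, exon overlap, a host intron on the opposite strand, and an opposite-strand locus within given distances, for members, shorter lone unspliced loci and spliced loci. At 5000 bases the members (9.29%) and the shorter lone unspliced loci (9.23%) have bars of like height, and in all 5 groups of bars the spliced loci are the highest.

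Exons were shared with an opposite-strand locus by 23 members (4.28%), against 2.71% of the shorter lone unspliced loci. With each pair counted once, these formed 21 pairs with a median of 1253 shared bases and a range of 27 to 4371, and in 9 pairs the partner was spliced. Counting pairs that overlapped in any way, there were 24. In 8 the 5′ ends overlapped, in 4 the 3′ ends, in 7 the partner lay whole inside the member, in 2 the partner spanned the member with exons in contact, and in 3 the member lay in an intron. Besides the 3 pairs of members, NONMMUG034707 (chr6:18792932-18797048, minus strand) shared 2669 bases with the spliced lincRNA Gm26809. NONMMUG004296 (chr10:85586527-85590999, minus strand) was spanned by the antisense gene 4930486F22Rik, with 1721 exon bases in common. NONMMUG026337 overlapped 2 opposite-strand loci, by 1859 and 1253 bases.

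Only 3 members (0.558%) lay whole inside an intron of another catalogued locus, all on its opposite strand, since the rule removed those on the same strand. The share was 1.44% among the shorter lone unspliced loci and 2.14% among the spliced loci. NONMMUG019538 (chr18:28869488-28873928, minus strand, 4441 nt) sat in an intron of 211607 bases of NONMMUG019537, which GENCODE names AC152397.1. This member also shared 143 exon bases with NONMMUG019539. NONMMUG032034 (chr5:28358595-28362946, plus strand, 4352 nt) sat in an intron of 33999 bases of NONMMUG032033 (Gm26608), and NONMMUG020224 (chr18:68768147-68772378, minus strand, 4232 nt) in one of 21900 bases of NONMMUG020223. GENCODE protein-coding genes are another class of host, in another annotation. Of the 91 matched members, 45 lay in an intron of one on the same strand and 10 only in an intron of one on the opposite strand. Those counts are not comparable with the 3 above.

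**Figure D5:**
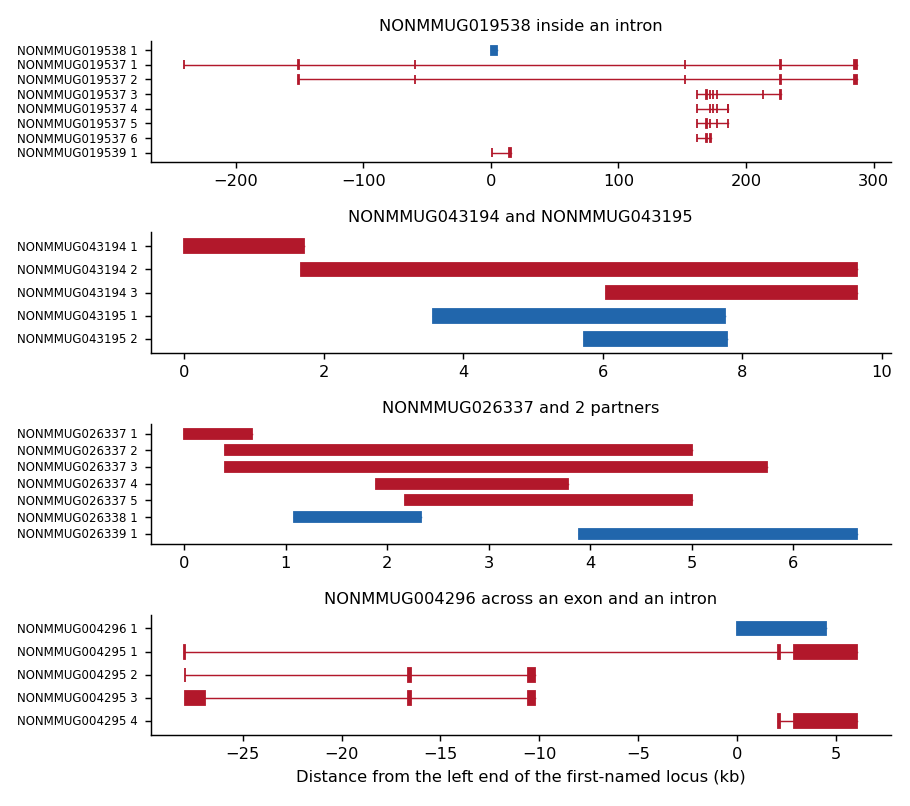
Exon maps of 4 members with opposite-strand partners, drawn to scale in kb from the left end of the member named first, with plus-strand models in red and minus-strand models in blue. Boxes are exons and lines introns, and the panels include NONMMUG019538 inside an intron of 211607 bases.

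Among non-overlapping neighbours on opposite strands, both orientations occurred. Within 5000 bases there were 14 head-to-head pairs, with 5′ ends facing each other, and 14 tail-to-tail pairs, with 3′ ends facing. Within 20000 bases there were 59 and 45. The closest head-to-head pairs were NONMMUG030999 (chr4:135178201-135182443, minus strand), 127 bases from a spliced locus with 6 transcripts, NONMMUG011936 (chr13:110612954-110617992, plus strand) at 247 bases and NONMMUG033637 (chr5:120869672-120875569, minus strand) at 1300 bases. The closest tail-to-tail pairs were NONMMUG024076 (chr2:105786254-105791146, plus strand) at 29 bases, NONMMUG009569 (chr12:87299088-87303516, plus strand) at 32 bases and NONMMUG030318 (chr4:115800000-115804607, plus strand) at 405 bases. Within 1000 bases there were 2 head-to-head and 3 tail-to-tail pairs.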

How the data were processed

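The deposited file holds exon positions (start and end, in bases) of lincRNA models on mm9, and per the labels the libraries were RNA-seq. TopHat2 2.0.8 and Cufflinks 2.1.1 are named in the submitters' processing notes. The authors' way of drawing up the catalogue is not stated in the labels or the file, nor is whether libraries kept strand. No library value entered any result, so no test was run.

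Loci were built from the gene identifiers. A span ran from the first to the last exon base, distance was the coordinate difference between span ends (0 for overlap), and an overlap needed 1 base. The geometry was tested on simulated loci. Members were matched to GENCODE M21 single-exon transcripts by exact length, chromosome and strand, then by spacing to anchors, which were matched loci with a unique run of intron, exon and intron or a unique single exon of at least 2000 nt. Sequences are GENCODE's. Python 3.11.15, numpy 2.4.6, pandas 2.3.3 and matplotlib 3.10.9 were used.

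The named loci follow extremes of each measure (longest, most transcripts, nearest the limits, most overlap, closest and farthest) and a list of known RNAs. The intron hosts, retained introns and printed ends were chosen after values were seen. The members and lists were chosen with earlier results of these data known. Other length minimums, clearances, transcript rules and distances were tried.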

Additional observations from a re-analysis of the deposited data

How the results depend on the processing

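No paired analysis was possible because the file holds no value per library. Of 73 values recomputed under another setting, 60 stayed within 1.5 times of the reported count, or inside its 95% interval for a share or median, and 13 did not. The settings share loci, and neighbouring loci are not independent, so these limits were a yardstick and not a test. At a minimum of 3000 nt there were 2132 loci, with a median length of 3547 nt and at most 177 on a chromosome. At 5000 nt there were 104, with a median of 5355 nt, at most 10 on a chromosome and 0% inside an opposite-strand intron. The median distance to the nearest locus on either strand was 18514 bases with a clearance of 1000 bases, 27048 with 10000 and 16253 with none. An opposite-strand locus lay within 1000 bases of 5.39% and within 10000 bases of 12.8%. With the reference strand swapped, 9 members had an equal-length transcript. Using single-exon GENCODE genes only (89) or requiring equal spacing (91) was chosen after seeing the data. When gaps under 30 nt were not counted as introns there were 571 loci. The chief limits are that levels, strand protocol and depth were not analysed here, that GENCODE places are known for 91 of 538 members, and that they come from a later build.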

Other observations

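Besides the members matched on their own strand, 4 had an equal-length GENCODE transcript with equal spacing on the opposite strand. NONMMUG004463 (chr10:94622995-94628294, catalogued on minus) corresponded to Gm48874, NONMMUG013605 (chr14:94018065-94022248, minus) to Gm48967, NONMMUG032034 (chr5:28358595-28362946, plus) to Gm43611 and NONMMUG039291 (chr7:133307547-133311917, minus) to Gm17137. The last of these is the minus-strand member of the pair with identical spans, and its plus-strand partner, NONMMUG039290, was matched to the same Gm17137. For NONMMUG032034, one of the 3 members inside an opposite-strand intron of a catalogued locus, the GENCODE strand would place it on the strand of its host.

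In Gm45477 the hexamer ATTAAA followed directly on tgctggg, a run known from the mouse B1 repeat. No other matched member and no other of the 207 long TEC transcripts, of which Gm45477 is 1, held these 13 letters in its last 50 bases. They occurred there in 6 of the 2773 spliced lincRNA transcripts.

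Locus numbers rose along each chromosome for at least 99.7% of neighbouring loci, and 17189 of the numbers up to 46475 are not used in the file. An unused number stood directly beside 250 members (46.5%), close to the 44.4% of all autosomal loci.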
